A study of Mus musculus and Homo sapiens with 10 samples.

Results

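The human HOX clusters are 4 short stretches of the genome that held 35 of the 10912 CTCF intervals listed for HEK293T cells. The 35 were chosen by position alone. An interval was taken if any base of it lay within 100 kb of the HOXA (chromosome 7, 27.09 to 27.21 Mb), HOXB (chromosome 17, 48.52 to 48.74 Mb), HOXC (chromosome 12, 53.93 to 54.06 Mb) or HOXD (chromosome 2, 176.08 to 176.2 Mb) cluster. Positions are taken as hg38. Below, the span is the cluster itself and the window is the span with 100 kb on each side. The HOXA window held 8 intervals, the HOXB window 10, the HOXC window 13 and the HOXD window 4, and no interval fell in more than 1 window. They were set against the other 2436 intervals of the same 4 chromosomes.

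The list came from Nanopore-DamID, in which a chromatin protein is fused to the bacterial adenine methyltransferase Dam, GATC sites near it become methylated, and DpnI cuts those sites before sequencing. HEK293T is a human line derived from embryonic kidney. Of the samples from it, 2 carried CTCF fused to DamN126A, a mutant of Dam made to lower untargeted methylation, and 1 carried DamN126A alone. Expression was induced with 2 µg/mL doxycycline. The labels name no other genotype, clone or treatment. Intervals were listed as positions without a score or a value per sample, so depth is unknown and no spread between the 2 samples could be computed. No label says how DamN126A alone was used in calling intervals, so CTCF-directed methylation and untargeted methylation by Dam cannot be told apart within an interval. With no expression values, the cell line could not be checked against markers.

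HOX genes encode homeodomain transcription factors that give cells of the embryo their position along the body axis. Within a cluster the genes lie side by side in the order of their numbers. Low numbers act towards the head and early, and high numbers act towards the tail and late. CTCF is a zinc finger protein that halts cohesin as it extrudes chromatin loops, and its sites inside HOX clusters are known as borders between active chromatin and chromatin held by Polycomb. The symbols give 39 genes, of which 11 are HOXA, 10 HOXB, 9 HOXC and 9 HOXD. Every cluster keeps paralogue 13. On hg38 the 13 side of a cluster is its high-coordinate side for HOXA and HOXB and its low-coordinate side for HOXC and HOXD, as known from textbook maps. Positions below are read from the 13 side, and each span is cut into 4 sections of equal length. Single human genes were not placed on the coordinates, so no interval is assigned to a gene.

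In the HOXA cluster 7 CTCF intervals covered 53.3% of the 120 kb span. The pair next to the 13 side, beyond which EVX1, another homeobox gene, is known to lie, measured 1.54 kb (chr7:27208753-27210294) and 9.84 kb (chr7:27193067-27202908). Next came the widest of the cluster, 19.4 kb (chr7:27165774-27185221), which ranked 13 by width among the 512 intervals of chromosome 7. It was followed by intervals of 10.03 kb (chr7:27149347-27159378) and 14.3 kb (chr7:27134839-27149180), only 166 bases apart. An interval of 2.25 kb (chr7:27127696-27129949) closed this run. The window held a single interval outside the span, 2.66 kb (chr7:27233213-27235869), on the 13 side.

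Of these 8 intervals 6 formed a run of 82.6 kb in which no gap reached 10 kb. Joined in this way, a setting chosen after the data were seen, the run was the longest of 411 on chromosome 7. It ranked 19 of 8064 in the whole list. With only gaps under 1 kb joined, the longest run of the HOXA window was 24.5 kb. That run ranked 6 of 479 on the chromosome and 197 of 9813 in the list. Past the 13 side the sequence was then empty for a long way: the next interval began 1085 kb from the span. Opposite the 13 side, the nearest interval outside the window lay 225 kb from the span. Farther out on that side the sequence was not bare: 2 intervals lay 200 to 500 kb and 10 lay 500 to 1000 kb from the span.

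**Figure D1:**
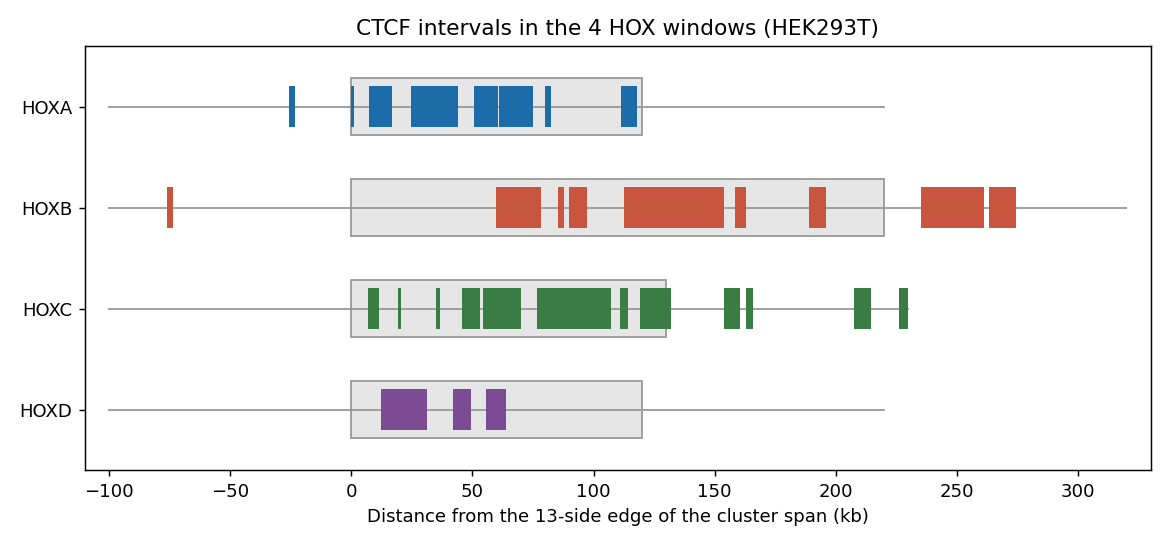
Position and width of the 35 CTCF intervals (coloured boxes) in the 4 HOX windows, with the distance in kb from the 13-side edge of the cluster span on the x axis; grey boxes are the spans and lines the windows with 100 kb on each side. Intervals closer than 1 kb look joined. HOXA and HOXC are filled along most of the span, and the section of HOXB at the 13 side and that of HOXD at the far side hold none.

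The HOXB cluster had 7 intervals over a span of 220 kb, the longest of the 4, and none lay at its 13 side. No interval touched the section next to that side, 55 kb long, where HOXB13 is known to lie apart from the rest, since the cluster has paralogues 1 to 9 and 13 only. With the adjoining sequence the empty stretch was 133 kb (chr17:48680205-48813512), the longest gap between intervals inside any of the 4 windows. It ended at an interval of 2.44 kb (chr17:48813513-48815950) outside the span. The next section was 51.4% covered, the one after it 83.2% and the last, at the HOXB1 side, 13.03%.

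The third section was covered mostly by the widest interval of all 35, 41.2 kb (chr17:48586067-48627222). It was the third widest of 579 on chromosome 17 and ranked 31 in the list. Beside it lay 4.6 kb (chr17:48576857-48581459) and, nearer the HOXB1 side, 7.17 kb (chr17:48544023-48551187). On its other side 4 intervals followed. Those of 7.41 kb (chr17:48642733-48650141) and 2.36 kb (chr17:48652224-48654582) were 2.08 kb apart. Those of 9.92 kb (chr17:48661662-48671576) and 8.61 kb (chr17:48671593-48680204) were separated by 16 bases, the smallest gap among the members. Past the HOXB1 side of the span the window held a pair of wide intervals, 25.9 kb (chr17:48478936-48504845) and 10.9 kb (chr17:48465699-48476602). HOXB was thus the cluster with the heaviest flank, 36.8% of the 100 kb on the HOXB1 side, about as much as the span itself, 36.9%.

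The HOXC cluster was the fullest, with 9 intervals over 130 kb and 57.6% of the span covered. Coverage was lowest at the 13 side. There the first section, 32.5 kb long, was 17.4% covered by intervals of 4.62 kb (chr12:53936754-53941375) and 1.04 kb (chr12:53949301-53950337), the latter the narrowest of the 35. The next, 1.7 kb (chr12:53964858-53966553), was also narrow. From there to the HOXC4 side the sections were 61.2%, 79.7% and 72.2% covered.

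The dense part of HOXC began with 7.51 kb (chr12:53975819-53983326) and 15.7 kb (chr12:53984317-54000023), 0.99 kb apart. Intervals of 22.0 kb (chr12:54006622-54028617) and 8.56 kb (chr12:54028668-54037231) followed, only 50 bases apart. The span ended with 3.04 kb (chr12:54041088-54044123) and 12.6 kb (chr12:54049240-54061815). With gaps under 10 kb joined, 7 intervals made a run of 97 kb that ranked 4 of 485 on chromosome 12 and 12 in the list. At that setting no other cluster had as long a run. The longest of HOXB was 50.4 kb (3 of 393 on chromosome 17) and that of HOXD 22.0 kb (23 of 540 on chromosome 2). With only gaps under 1 kb joined, the longest HOXC run was 30.6 kb, ranked 18 of 615 on chromosome 12 and 112 in the list. HOXB then had a longer one, its single interval of 41.2 kb (3 of 505 on chromosome 17). Beyond the HOXC4 side the window held 4 more, of 6.87 kb (chr12:54083739-54090609), 3.01 kb (chr12:54092877-54095890), 6.9 kb (chr12:54137768-54144667) and 10.5 kb (chr12:54156262-54166805). The last of these crossed the window's edge and its midpoint lay outside, and the next interval, 3.79 kb wide, began 108 kb from the span. On the 13 side, 100 kb next to the span held none.

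The HOXD cluster had the fewest intervals, 4, and they ran from 12.3 to 64.1 kb from the 13 side of a 120 kb span. The first pair, 5.35 kb (chr2:176092291-176097635) and 13.7 kb (chr2:176097717-176111394), was 81 bases apart. The others were 7.47 kb (chr2:176122092-176129565) and 8.39 kb (chr2:176135666-176144055). From the 13 side the sections of 30 kb were 58.8%, 44.01%, 13.5% and 0% covered, so coverage fell towards HOXD1. No interval lay in either flank. The nearest outside began 623 kb from the span on the 13 side, beyond EVX2, and 630 kb on the HOXD1 side. These 4 intervals were all that was listed over 1.37 Mb.

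The section without an interval differed between HOXB and HOXD. It was at the 13 side in HOXB (0%) and at the other side in HOXD (0%), and the least covered section of HOXC was at the 13 side (17.4%). With 1 list these are descriptions.

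Against the rest of its own chromosome every window was dense in intervals. The HOXA window had 25 intervals per Mb against 3.22 on the rest of chromosome 7, a ratio of 7.76 (95% exact conditional binomial interval 3.33 to 15.4). HOXB had 23.8 against 6.98 per Mb on chromosome 17, a ratio of 3.41 (1.63 to 6.32). HOXC had 39.4 against 5.23 per Mb on chromosome 12, a ratio of 7.53 (3.99 to 12.96). HOXD had 12.5 against 2.8 per Mb on chromosome 2, a ratio of 4.47 (1.21 to 11.5). The interval of each ratio lay above 1, but that of HOXD included 1 under other settings: with a margin of 200 kb (0.747 to 7.07), against all other chromosomes (0.915 to 8.6) and with intervals under 1 kb apart joined (0.747 to 10.7). Over the 4 windows 35 intervals were counted where the densities of the rest gave 6.58, a ratio of 5.32 (exact Poisson interval 3.7 to 7.4). Within the spans alone 27 were counted against 2.94, a ratio of 9.17 (6.04 to 13.3), so the excess was larger in the clusters than in windows that include their flanks.

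These intervals cover counting error only and treat neighbouring intervals as separate events. With intervals under 10 kb apart joined, a setting chosen after the data were seen, the pooled ratio was 3.16 (1.77 to 5.21). The ratios for HOXA (3.6, 0.739 to 10.6), HOXB (2.5, 0.808 to 5.89) and HOXD (2.8, 0.338 to 10.1) then had intervals that include 1, and that for HOXC (4.16, 1.35 to 9.78) did not.

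**Figure D2:**
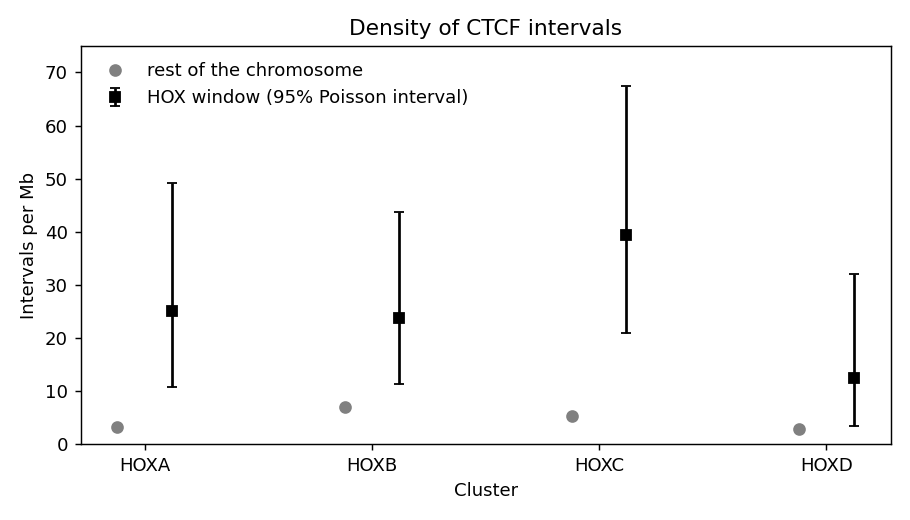
CTCF intervals per Mb (y axis) in each HOX window (black squares, bars: 95% exact Poisson interval of the window's count) and on the rest of the same chromosome (grey circles). Windows range from 12.5 (HOXD) to 39.4 per Mb (HOXC), the rest from 2.8 to 6.98 per Mb.

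With both sides averaged, the surroundings of all 4 clusters held more intervals per Mb than the rest of their chromosomes. In the 1 Mb on each side of the window, HOXA had 7.0 intervals per Mb against 3.22 on the rest of the chromosome, and HOXB 18.0 against 6.98. HOXC had 28.5 against 5.23, and HOXD 9.0 against 2.8. The 18 intervals in the HOXD sides all lay over 500 kb from the span, the nearest at 623 and 630 kb. Of them, 9 lay within 1 Mb of the span and the rest farther out. Set against the 1 Mb on each side, a reference chosen after the data were seen, the pooled ratio of the windows was 1.58 (exact Poisson interval 1.1 to 2.2). The HOXA window stayed above the average of its sides with a ratio of 3.57 (exact conditional binomial interval 1.3 to 9.12). Those sides were unequal. No interval lay 100 to 1000 kb from the span on the 13 side. Opposite it, 2 lay 200 to 500 kb and 10 lay 500 to 1000 kb from the span. The sides were not compared with the window separately. For HOXB (1.32, 0.585 to 2.72), HOXC (1.38, 0.694 to 2.56) and HOXD (1.39, 0.342 to 4.22) the interval included 1.

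The spans alone stood out more from the 1 Mb on each side of them. This reference starts at the span's edge and so differs from that of the windows. It held 6.5 intervals per Mb for HOXA, 4.5 for HOXD, 29.0 for HOXC and 19.5 for HOXB. For HOXD both parts changed: 33.3 per Mb in the span against 12.5 in the window, and 4.5 in the sides against 9.0. The ratio was 8.97 for HOXA (3.03 to 24.2), 7.41 for HOXD (1.67 to 26.5), 2.39 for HOXC (1.04 to 4.85) and 1.63 for HOXB (0.616 to 3.69). The HOXB interval included 1. By covered bases, HOXA and HOXD spans held 53.3% and 29.1% against 4.92% and 2.65% of their sides. HOXC and HOXB spans held 57.6% and 36.9% against 19.8% and 12.7%. By span, the contrast with the sides was thus larger for HOXA and HOXD, whose sides had fewer intervals per Mb, than for HOXB and HOXC. By window, HOXD did not differ from its sides beyond counting error, as given above.

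**Figure D3:**
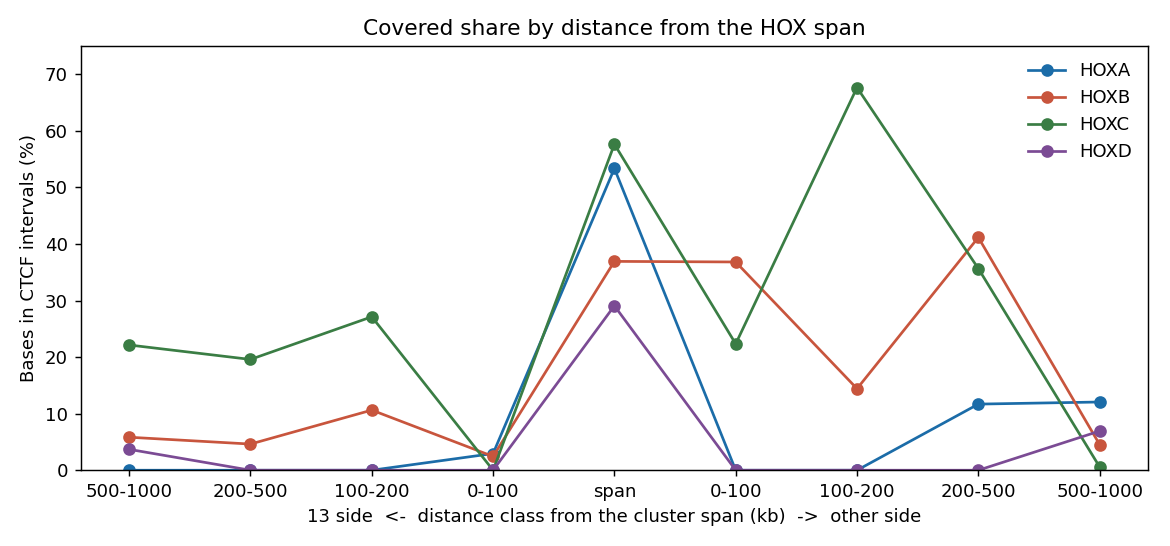
Share of bases inside CTCF intervals (y axis, %) in the HOX span and in distance classes up to 1000 kb on the 13 side (left) and the other side (right), 1 line per cluster; lines join classes for reading only. HOXA and HOXD peak at the span (53.3% and 29.1%). Up to 200 kb from it HOXD has 0%, and HOXA has 0% except for 2.95% in the class of 0 to 100 kb on its 13 side. HOXC reaches 67.6% in the class of 100 to 200 kb on its other side.

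Farther out, the neighbourhoods were lopsided. The HOXC sequence 100 to 200 kb past the HOXC4 side was 67.6% covered by 7 intervals, more than the span. On the HOXB1 side of HOXB, the class of 200 to 500 kb was 41.2% covered by 15 intervals, also more than the span. HOXA had 0% on the 13 side in each class from 100 to 1000 kb, and 12.1% at 500 to 1000 kb on the opposite side. HOXD had 0% on both sides up to 500 kb.

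To see how often a chromosome holds such a window, it was cut into tiles of the window's width. On chromosome 7, 7 of 488 tiles of 320 kb (1.43%) had at least the 8 intervals of the HOXA window, and the median tile had 0. On chromosome 12, 6 of 398 tiles of 330 kb (1.51%) reached the 13 intervals of HOXC, where the median was 1. The HOXA and HOXC windows were therefore near the top of their chromosomes. On chromosome 17, 13 of 193 tiles of 420 kb (6.74%) reached the 10 of HOXB, where the median was 2. On chromosome 2, 54 of 751 tiles of 320 kb (7.19%) reached the 4 of HOXD, where the median was 0. By count, HOXB and HOXD were matched by larger shares of their own chromosomes than HOXA and HOXC were. Over tiles of all chromosomes HOXB and HOXA changed places, at 2.35% and 2.63%, with 0.517% for HOXC and 11.4% for HOXD.

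By covered bases fewer tiles matched the HOXA, HOXB and HOXD windows than by count. For HOXC 7 tiles did so by coverage and 6 by count, and with tiles shifted by 50% of their width 6 and 7. The HOXB window was 28.7% covered, a share reached by 1 of 193 tiles (0.518%). HOXA at 20.9% was reached by 4 of 488 tiles (0.82%), HOXC at 29.5% by 7 of 398 (1.76%) and HOXD at 10.9% by 15 of 751 (2%). The rest of the chromosome was 1.87% covered on chromosome 7, 3.57% on chromosome 17, 3.54% on chromosome 12 and 1.58% on chromosome 2. Covered bases gave ratios of 11.2 for HOXA, 8.03 for HOXB, 8.32 for HOXC and 6.9 for HOXD. HOXB thus stood out from its chromosome more by covered bases than by number. Of the 120 kb covered in its window, 1 interval in the span gave 41.2 kb and 1 in the flank 25.9 kb. The HOXB median width, 8.01 kb, was below that of HOXA, 8.34 kb. The measure of covered bases was chosen after the data were seen.

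**Figure D4:**
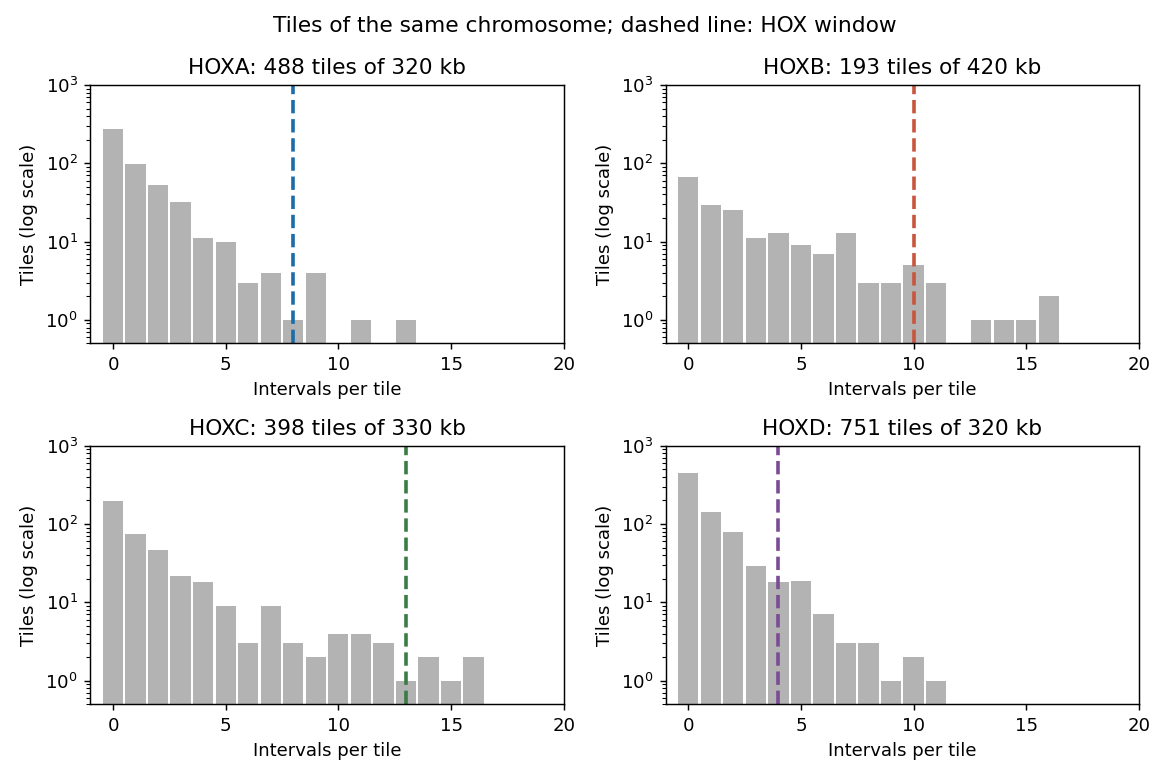
Number of tiles (y axis, log scale) by the number of CTCF intervals each holds (x axis) on the chromosome of each HOX cluster; tiles have the width of the window and do not touch it, and the dashed line marks the window. The HOXA and HOXC windows lie in the far tail (1.43% and 1.51% of tiles reach them), HOXB and HOXD at 6.74% and 7.19%.

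The 4 windows could not be ranked among themselves beyond counting error. The widest difference was between HOXC and HOXD, 39.4 against 12.5 intervals per Mb, a ratio of 3.15 with an exact conditional binomial interval of 0.974 to 13.3. Within the spans HOXC and HOXB were farthest apart, 69.2 against 31.8 per Mb, a ratio of 2.18 (0.721 to 6.87). All 6 pairs had intervals that include 1, by window and by span. With these counts, differences of this size were not detectable.

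HOX intervals were wider at the median than intervals on the rest of their chromosomes. The median width of the 35 was 7.47 kb (95% order-statistic interval 5.35 to 9.92 kb). For the other 2436 intervals of the 4 chromosomes it was 4.28 kb (4.1 to 4.42 kb). By cluster the medians were 8.34 kb for HOXA, 8.01 kb for HOXB, 6.9 kb for HOXC and 7.93 kb for HOXD. On the rest of each chromosome they were 4.16, 3.47, 5.01 and 4.45 kb in the same order, lower each time. Of the 35, 11 were wider than 10 kb (31.4%, Wilson interval 18.6 to 47.98%), against a background of 13.9%. Only 3 exceeded 20 kb, 2 in HOXB and 1 in HOXC (8.57%, 2.96 to 22.4%). The background was 2.59% with an interval of 2.03 to 3.3%, which overlaps that of the 35. At the narrow end, 3 were under 2 kb (8.57%, 2.96 to 22.4%), 1 in HOXA and 2 in HOXC, an interval that holds the background of 17.5%. Median widths in the 1 Mb on each side of the windows were not computed. Against those sides, covered bases gave ratios of 3.65 for HOXA, 2.68 for HOXB, 1.52 for HOXC and 1.82 for HOXD. The ratios by count were 3.57, 1.32, 1.38 and 1.39 in the same order. For HOXA and HOXC both measures were thus close, so no clear difference in width from the surroundings was seen there. This reading is rough. Covered bases stop at the window's edge, while the HOXC interval of 10.5 kb that crosses this edge was counted whole.

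HOX intervals were also close together. The median gap to the nearest interval was 3.86 kb (2.08 to 5.84 kb), against 16.7 kb (14.7 to 19.6 kb) on the rest of the 4 chromosomes. A neighbour lay closer than 10 kb for 30 of 35 (85.7%, Wilson interval 70.6 to 93.7%), against a background of 42.8%. By cluster these were 6 of 8 in HOXA, 8 of 10 in HOXB, 12 of 13 in HOXC and 4 of 4 in HOXD. A gap of over 50 kb on both sides was seen for 1 of 35, the interval beyond the HOXB 13 side (2.86%, background 31.3%). Close spacing and high density are 2 readings of the same positions and are not independent. Nor are the gap values independent of each other. Where 2 intervals are each other's nearest, the gap between them is counted for each. In HOXD the values were 0.081, 0.081, 6.1 and 6.1 kb. The order-statistic and Wilson intervals given here treat the 35 values as independent and may be too narrow.

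Near contact did not differ from the background beyond counting error. Of the 35, 10 had a neighbour closer than 1 kb (28.6%, 16.3 to 45.1%), against a background of 18.8%, which lies inside that interval. They formed 5 pairs, 1 in HOXA, 1 in HOXB, 2 in HOXC and 1 in HOXD. Each pair shares 1 gap, so the range of 16.3 to 45.1%, which treats its members as independent, may be too narrow. Joining such pairs changed the pooled density ratio little, from 5.32 to 5.12.

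**Figure D5:**
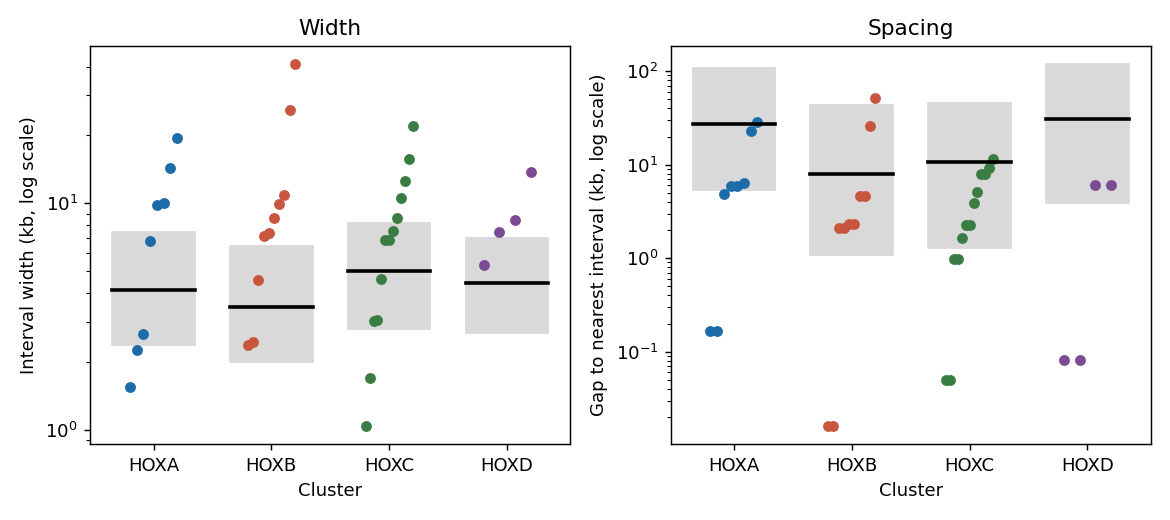
Width (left, kb, log scale) and gap to the nearest interval (right, kb, log scale) of each HOX interval (points, by cluster); black lines are the median and grey boxes the middle 50% of intervals on the rest of the same chromosome. Median widths of 6.9 to 8.34 kb lie above the chromosomes' 3.47 to 5.01 kb, and most gaps lie below the chromosomes' medians.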

How the data were processed

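The list used is a deposited table of CTCF interval coordinates (chromosome, start and end) without any measure of strength. Per the submitters' processing notes, the tools named are bedtools, deepTools, minimap2 and SAMtools and the builds hg38 and mm10; roles are not stated there. The caller, its thresholds, the use of DamN126A alone and the samples behind the list are likewise not stated. Per the labels' protocols, 2.5 µg of genomic DNA was cut with DpnI and prepared by ligation. Depth is unknown.

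Starts were counted from 1. The rest of a chromosome ran from its first to its last interval. Density ratios carry exact conditional binomial intervals, and the pooled ratio an exact Poisson interval, all at 95% and covering counting error only. No test was made across samples. Tiles were laid from the first interval and left out where they touched the window. The pooled density ratio and its interval were checked on simulated single-base positions placed at random. Joining and tiling were checked on a small made-up list. Listed intervals are wider and clustered, so the simulation does not show how the Poisson interval performs on them. The other kinds of 95% interval were not simulated. The members and measures were chosen with earlier results of these data known. All HOX genes may be named, and other genes only where they are the first neighbour of a cluster (EVX1, EVX2). Gene-by-gene positions, the planned lists of other homeobox, cofactor, Polycomb, Trithorax and cohesin genes, and sequence features needed a human annotation or genome and were not analysed here. The symbols were counted in a mouse table of GRCm38.p6. Mouse lamina lists were not used. The position of 1 interval is not reported here. Calculations ran in matplotlib 3.10.9, scipy 1.17.1, pandas 2.3.3 and numpy 2.4.6 under Python 3.11.15.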

Additional observations from a re-analysis of the deposited data

How the results depend on the processing

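All 54 alternative density ratios were above 1, with the size depending on the window and the reference. With the span alone the ratio was 9.17 pooled, 18.1 for HOXA, 13.2 for HOXC and 11.9 for HOXD. Against the 1 Mb on each side it was 1.58 pooled, 1.32 for HOXB and 1.38 for HOXC. Against all other chromosomes HOXB gave 6.4, by covered bases 8.03 for HOXB and 8.47 pooled, and with intervals under 10 kb apart joined the pooled ratio was 3.16. The cause of these moves was not tested. The other 57 of 68 alternatives stayed within the 95% interval of the main value. Among them were margins of 50 and 200 kb, membership by midpoint, wide intervals left out and tiles shifted by 50% of their width. Staying within it can still be a large change, since these intervals are wide. For HOXD the main ratio was 4.47 (1.21 to 11.5), so 1.39 against the 1 Mb on each side counted as within. With a margin of 200 kb the HOXD interval included 1 (ratio 2.75, 0.747 to 7.07), as it did against all other chromosomes (3.36, 0.915 to 8.6) and with intervals under 1 kb apart joined (3.63, 0.747 to 10.7). Against the 1 Mb on each side, the 95% intervals of HOXB, HOXC and HOXD also included 1. So did those of HOXA, HOXB and HOXD with intervals under 10 kb apart joined. Leaving out 1 cluster gave pooled ratios from 4.53 (without HOXC) to 6.85 (without HOXB). No paired analysis was possible because the list carries no value per sample, and for the same reason no sample could be left out and no stricter peak threshold tried.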
